A study of Mus musculus with 309 samples.

Results

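Cholesterol synthesis, uptake and export were followed through 31 mouse genes chosen by symbol: 19 enzymes of the synthesis pathway, 3 regulators of that pathway and 9 genes of uptake, storage and export. These are 31 of the 55291 gene symbols in the count table, and each of the 31 was detected well enough to be tested in every comparison. The series holds polyA mRNA-seq of 309 mouse mammary tumours of 24 tumour models, with 1 library for each tumour: 64 untreated tumours of 18 models, 65 treated with trametinib (an inhibitor of the kinase MEK) in 22 models, 66 with erlotinib (an inhibitor of the EGF receptor) in 22 models, 66 with carboplatin plus paclitaxel (called chemotherapy here) in 22 models, and 48 with anti-PD1 plus anti-CTLA4 antibodies (called checkpoint antibodies) in 16 models. MMTV-Neu and MMTV-PyMT are tumours of transgenes driven by the promoter of mouse mammary tumour virus, C3-TAG expresses the SV40 T antigen from the C3(1) promoter, and 4T1 and E0771 are established mouse mammary carcinoma lines, each a single line. The remaining models are known here by their label alone: 2153, 2208, 2224, 2225, 2250, 2336 and 9263, then p53RB-426, p53RB-624 and p53RB-626, KPB25L with its variants KPB25L-UV and KPB25L-APOBEC, T11 with T11-APOBEC, T12, K14-TRT, and the pair KPB1-B and KPB1-A. The labels give no dose, no time of collection and no age or strain. Libraries held 12.1 to 226.2 M estimated counts (M for mega, median 78.6 M), with medians of 76.9 M in untreated, 39.3 M in trametinib, 34.3 M in erlotinib, 103 M in chemotherapy and 113 M in antibody libraries. Summed epithelial markers of the untreated models ranged from 14.8 CPM in T11-APOBEC and 39.3 CPM in T11 to 4776 CPM in MMTV-Neu, so epithelial markers were nearly absent in the T11 models. The 3 tumours labelled KPB25L-UV under chemotherapy have library names that begin with KPB25L. The 31 genes together took 1133 to 4935.97 CPM of a library, where CPM is a count scaled to a common library total.

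Cells make cholesterol from acetyl-CoA through mevalonate, isoprenoid diphosphates, squalene and lanosterol. When membrane sterol is low, SCAP escorts the transcription factor SREBP2 (gene Srebf2) out of the endoplasmic reticulum, which switches on the synthesis enzymes and the lipoprotein receptor; INSIG proteins hold the complex back when sterol is plentiful. Oxysterols made from surplus cholesterol activate the liver X receptors (genes Nr1h2 and Nr1h3), which raise the efflux pumps ABCA1 and ABCG1 and the ubiquitin ligase MYLIP, a protein that removes lipoprotein receptors from the cell surface. All libraries are of whole tumours, so fewer cells of a type and less RNA per cell cannot be told apart.

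In untreated tumours the models differed most in Cyp51, the enzyme that demethylates lanosterol. Over the 16 models with at least 3 untreated tumours, its mean ranged from 30.3 ± 7.90 CPM (SD, n = 3) in MMTV-Neu to 358 ± 91.0 CPM (n = 3) in KPB25L-UV, an 11.8-fold span. KPB25L, at 217 CPM, was second. The next widest span among synthesis genes was that of Msmo1, the methylsterol oxidase that acts after Cyp51, from 16.1 ± 3.92 CPM (n = 3) in MMTV-Neu to 93.8 ± 35.2 CPM (n = 3) in T12. Dhcr7, which reduces a late sterol to cholesterol, ranged from 23.4 ± 1.39 CPM (n = 3) in T11-APOBEC to 125 ± 22.5 CPM (n = 3) in 2153. The narrowest spans were those of Fdft1 (squalene synthase), 2.32-fold, and Mvk (mevalonate kinase), 2.38-fold. On the storage and export side, Soat1, which esterifies cholesterol for storage, spanned 9.36-fold, from 17.0 ± 4.09 CPM (n = 3) in MMTV-Neu to 159 ± 28.9 CPM (n = 3) in T12. Abca1 spanned 7.25-fold, from 21.5 ± 1.85 CPM (n = 3) in KPB1-A to 156 ± 77.2 CPM (n = 3) in KPB25L. Abcg1 spanned 5.11-fold, from 14.4 ± 1.37 CPM (n = 3) in KPB1-A to 73.6 ± 5.04 CPM (n = 3) in KPB25L-UV. Neighbouring models in these orders overlapped: KPB25L and T12, for example, were followed by p53RB-624 at 136 CPM of Abca1 and 152 CPM of Soat1, each within 1 SD of the highest model. All 31 genes passed the test for a difference among models, against 98.1% of all genes tested (edgeR quasi-likelihood F test over 62 tumours), so the count is no different from the background.

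**Figure D1:**
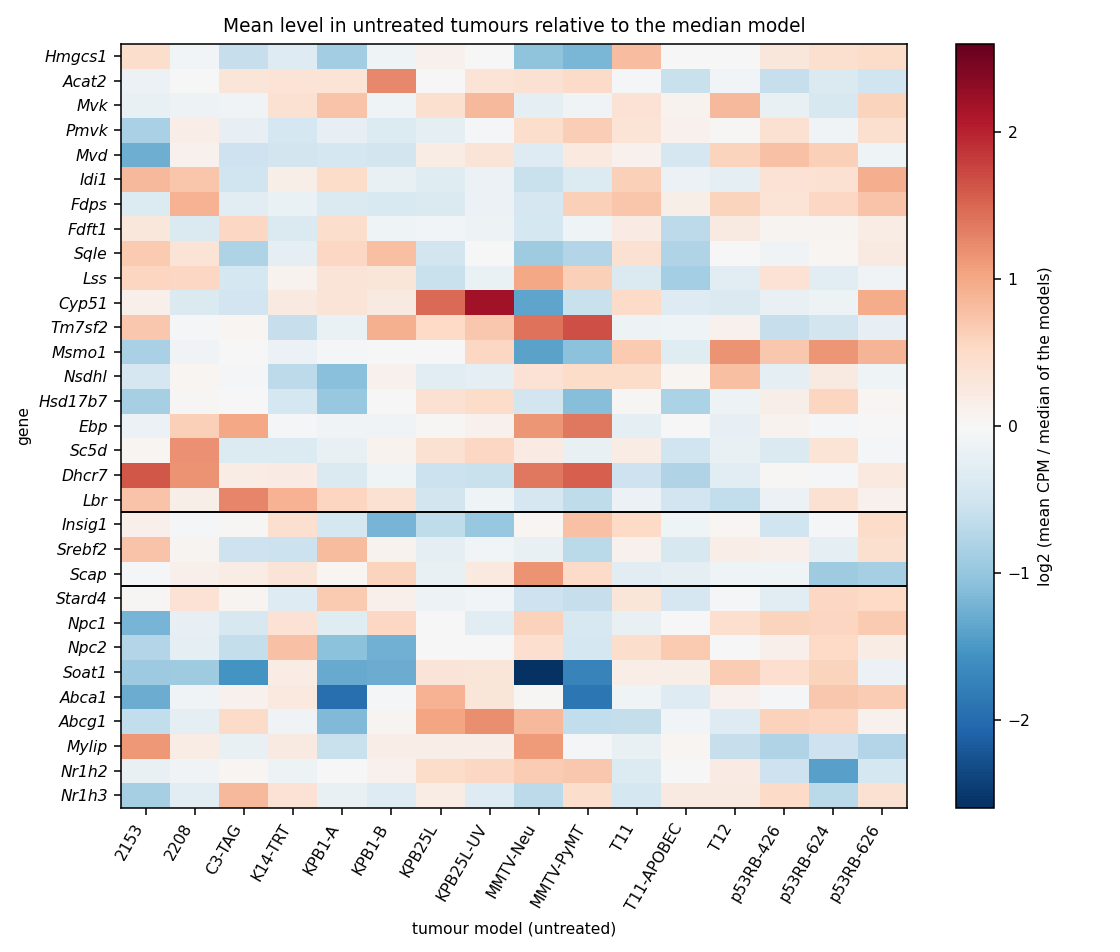
Mean level of each gene (rows) in the untreated tumours of 16 models (columns), as log2 of the mean CPM over the median of the models. Black lines separate synthesis genes, regulators, and uptake, storage and export genes. Cyp51 in KPB25L-UV (358 CPM) and Soat1 in MMTV-Neu (17.0 CPM) are the cells farthest above and below their row's median.

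The promoters of the members show what many of the synthesis genes share in sequence. RefSeq promoter windows (250 bases before to 50 after the start, GRCm38.p6) existed for 25 of the 31 genes: 16 synthesis genes, 3 regulators and 6 uptake, storage and export genes. The CCAAT box (CCAAT, either strand) occurred in at least 1 window of 15 of the 16 synthesis genes, 93.8%, against 41.1% of all 27025 genes with a window. It occurred in 2 of 3 regulators and 3 of 6 uptake, storage and export genes. The GC box (GGGCGG, either strand) also occurred in 15 of 16 synthesis genes, against 38.2% of all genes. It occurred as well in 3 of 3 regulators and in 4 of 6 uptake, storage and export genes, Abca1 and Mylip among them. The classical sterol regulatory element (TCACNCCAC, either strand) occurred in 1.44% of all genes and, among the members, in Hmgcs1, 137 to 129 bases before its start. An LXR half-site (AGGTCA, either strand) occurred in 18.1% of all genes. It was found in 2 of 16 synthesis genes, 1 of 3 regulators and 0 of 6 uptake, storage and export genes. For the E-box (CACGTG) these counts were 3, 2 and 1, against 8.09% of all genes. The 150 bases before the start of 5 genes are given below in their own 5′ to 3′ direction, with CCAAT boxes and the sterol regulatory element in capitals. Hmgcs1 (HMG-CoA synthase), Mvd (mevalonate diphosphate decarboxylase) and Nsdhl (a sterol dehydrogenase) represent synthesis genes, and the LXR targets Abca1 and Mylip represent the opposite side. Hmgcs1 lies at chr13:119690201-119690350 (plus strand), Mvd at chr8:122443423-122443572 (minus), Nsdhl at chrX:72918371-72918520 (plus), Abca1 at chr4:53159896-53160045 (minus) and Mylip at chr13:45389592-45389741 (plus).
Hmgcs1: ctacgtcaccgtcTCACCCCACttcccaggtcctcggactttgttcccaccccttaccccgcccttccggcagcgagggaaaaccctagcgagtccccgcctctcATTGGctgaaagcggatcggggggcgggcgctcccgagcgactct
Mvd: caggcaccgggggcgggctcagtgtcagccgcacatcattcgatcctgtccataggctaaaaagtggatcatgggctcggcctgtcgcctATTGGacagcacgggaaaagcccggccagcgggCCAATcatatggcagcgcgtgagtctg
Nsdhl: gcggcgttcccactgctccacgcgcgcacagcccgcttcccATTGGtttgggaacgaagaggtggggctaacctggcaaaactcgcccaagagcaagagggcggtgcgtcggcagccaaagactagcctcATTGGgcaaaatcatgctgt
Abca1: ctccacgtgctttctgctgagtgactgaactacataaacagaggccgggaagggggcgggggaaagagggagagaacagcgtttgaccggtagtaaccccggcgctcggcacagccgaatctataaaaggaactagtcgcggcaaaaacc
Mylip: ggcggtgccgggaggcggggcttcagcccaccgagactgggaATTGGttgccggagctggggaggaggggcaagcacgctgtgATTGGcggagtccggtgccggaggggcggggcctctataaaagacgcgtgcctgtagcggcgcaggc
In these stretches ATTGG is the CCAAT box read on the other strand. Mvd, Nsdhl and Mylip each hold a pair of CCAAT boxes and Abca1 holds neither motif in the stretch shown. A match describes letters in the window and not a bound site.

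Trametinib was compared with no treatment in 48 and 54 tumours of the 16 models that held both. Among these models E0771 had only 1 untreated tumour, on which its difference rests in every comparison with untreated tumours. Synthesis genes were lower and the efflux genes higher under trametinib: 15 of 19 synthesis genes fell, against 14.1% of all genes tested that fell, and 5 of 9 uptake, storage and export genes rose, against 14.1% of all genes that rose. The median log2 fold change was -0.33 over synthesis genes and 0.22 over uptake, storage and export genes, against 0.00 over all genes tested. All fold changes are treated over untreated with tumour model as a term, from edgeR's quasi-likelihood test, and a gene is called at an adjusted p (Benjamini-Hochberg over all genes) under 0.05. Levels of an arm are given as its lowest tumour, through its median, to its highest tumour. Among the early, isoprenoid-making steps, Idi1 (isopentenyl diphosphate isomerase) ran from 34.8 through 74.0 to 180.3 CPM untreated and from 8.35 through 48.8 to 94.7 CPM under trametinib. It fell by 0.69 on the log2 scale (SE 0.11, adjusted p = 6.33e-07) and was lower on average in 16 of 16 models. Fdps, which makes farnesyl diphosphate, ranged from 47.7 CPM through a median of 97.0 to 236 in untreated tumours and from 28.5 through 62.3 to 171 under trametinib, log2 fold change -0.62 (SE 0.088, adjusted p = 3.88e-08). Sqle (squalene epoxidase, the first step committed to sterols that uses oxygen) ran from 33.4 through 97.6 to 177 CPM untreated and from 15.5 through 60.6 to 189.6 under trametinib, log2 fold change -0.56 (SE 0.092, adjusted p = 7.89e-07). The arms overlapped in all 3 genes, with lower medians under trametinib.

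Later in the pathway, Cyp51 ran from 22.1 through 76.4 to 417 CPM in untreated tumours and from 15.6 through 52.9 to 524 CPM under trametinib. Its log2 fold change was -0.61 (SE 0.093, adjusted p = 1.67e-07), and the highest value of both arms belonged to the trametinib arm, in a KPB25L-UV tumour. Lbr, a nuclear envelope protein that is also a sterol reductase, had the smallest p of the synthesis genes: 27.0 through 49.7 to 160 CPM untreated, 19.0 through 37.6 to 140.2 CPM treated, log2 fold change -0.50 (SE 0.064, adjusted p = 2.01e-09). Dhcr7 went from 20.8 through 40.3 to 150 CPM to 12.7 through 33.6 to 136 CPM, log2 fold change -0.43 (SE 0.056, adjusted p = 2.59e-09). For each of these genes the arms overlapped, and Lbr was lower on average in 15 of 16 models while Cyp51 and Dhcr7 were lower in 14. Msmo1 fell by 0.56, Lss (lanosterol synthase) by 0.38, Hmgcs1 by 0.36, Fdft1 by 0.33, Hsd17b7 by 0.30, Nsdhl by 0.28, Acat2 by 0.24, Mvd by 0.22 and Sc5d by 0.17 on the log2 scale, with adjusted p from 4.6e-08 to 0.0176. The 4 synthesis genes that did not pass were Mvk (-0.11), Pmvk (-0.15), Tm7sf2 (-0.05) and Ebp (-0.02). Acat2 shares 43.7% of its 31-base words with other genes, mostly Acat3, so its value is uncertain; Fdft1 shares 31.9%, of which the overlapping gene Ctsb holds the largest part (17.6% of the words of Fdft1), and pseudogenes or neighbours touch Fdps (27.9%) and Idi1 (27.1%).

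**Figure D2:**
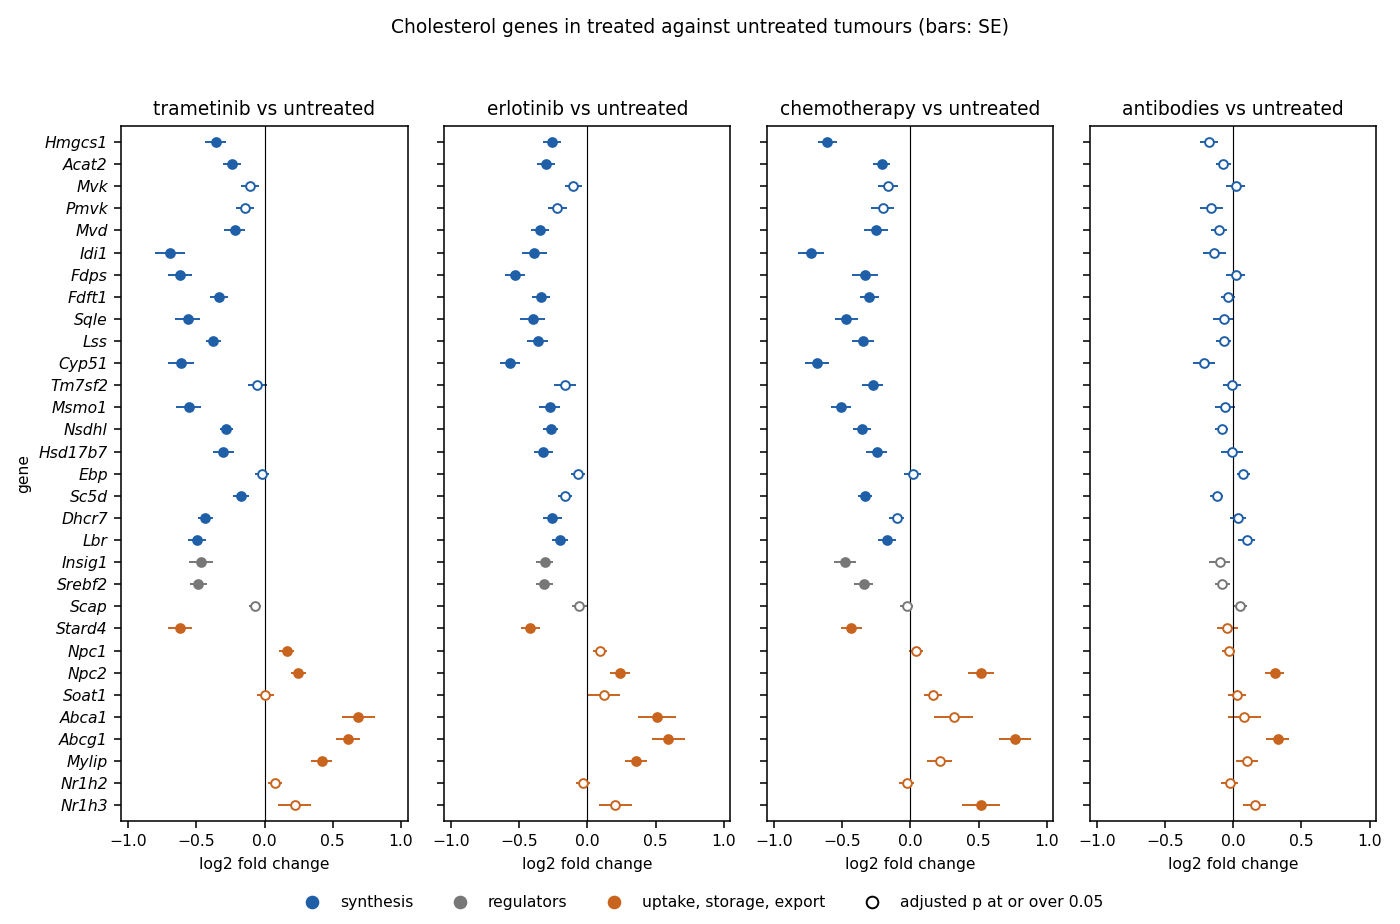
Log2 fold change (x axis) of each of the 31 genes (y axis) in treated over untreated tumours, 1 panel for each treatment. Points are model estimates with SE bars, coloured by role and filled where the adjusted p was under 0.05. Filled synthesis points lie left of 0 in the first 3 panels, while Abcg1 lies right of 0 (0.61, 0.59, 0.77 and 0.33) in all 4.

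Of the regulators, Srebf2 ran from 144 through 265 to 490 CPM untreated and from 71.5 through 200.5 to 396 CPM under trametinib, log2 fold change -0.49 (SE 0.061, adjusted p = 9.83e-10). Insig1, itself a target of SREBP2, went from 13.2 through 34.2 to 94.4 CPM to 12.7 through 20.2 to 93.0 CPM, log2 fold change -0.47 (SE 0.090, adjusted p = 2.51e-05). Both fell with arms that overlapped, and the escort Scap did not pass (-0.07, adjusted p = 0.234). Among transport genes, Stard4, a cytosolic sterol carrier, fell, as the synthesis genes did, while the called others of its list rose. It ran from 20.5 through 38.2 to 72.3 CPM untreated and from 8.93 through 26.2 to 62.4 CPM treated, log2 fold change -0.62 (SE 0.089, adjusted p = 3.93e-08), and was lower on average in 16 of 16 models. Abca1 ran from 19.4 through 75.8 to 234 CPM untreated and from 22.1 through 126 to 446 CPM treated, log2 fold change 0.69 (SE 0.12, adjusted p = 4.21e-06). Abcg1 went from 13.0 through 30.6 to 171 CPM to 16.5 through 49.5 to 162 CPM, log2 fold change 0.61 (SE 0.086, adjusted p = 2.16e-08). Both efflux pumps were higher on average in 12 of 16 models. Mylip, at 11.8 through 32.8 to 97.4 CPM untreated and 4.18 through 45.7 to 157 CPM treated, rose by 0.42 (SE 0.077, adjusted p = 1.1e-05) and was higher in 14 of 16 models. The lysosomal exporters Npc2 and Npc1 rose by 0.25 (adjusted p = 0.000157) and 0.16 (adjusted p = 0.0161). Npc1 ran from 21.3 through 57.0 to 99.8 CPM untreated and from 26.4 through 66.5 to 96.6 CPM treated. Soat1 did not pass, at 13.0 through 80.2 to 187 CPM and 17.7 through 89.8 to 178 CPM, log2 fold change 0.01 (adjusted p = 0.955), and neither LXR gene passed (Nr1h2 0.08, Nr1h3 0.22).

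Genes of neighbouring pathways were called in both directions under trametinib, to be read against the 14.1% of all genes that fell and the 14.1% that rose. Of 12 fatty acid synthesis genes 1 fell and 3 rose, of 12 isoprenoid branch genes 2 fell, of 9 sterol sensing genes 1 fell and 2 rose, of 16 other sterol transport genes 1 fell and 4 rose, and of 11 oxysterol and LXR pathway genes 1 fell and 3 rose. Lipa, the lysosomal lipase that frees cholesterol from its esters, rose by 0.63 (SE 0.11, adjusted p = 2.12e-06). Ch25h, which makes an oxysterol, fell by 1.13 on the log2 scale (SE 0.12, adjusted p = 1.02e-11). Cell type markers moved too: all 6 markers of dividing cells fell (summed median 642 CPM against 1056 in untreated tumours), all 4 endothelial markers fell (96.7 against 168 CPM), and all 6 fibroblast markers rose (8146 against 6368 CPM). Of 8 macrophage markers 3 fell (1214 against 1546 CPM) and of 6 epithelial markers 2 fell. Of 5 T cell markers 2 rose (13.1 against 8.02 CPM), of 6 adipocyte markers 1 rose (44.6 against 23.9 CPM) and of 5 keratinocyte markers 2 rose. Their part in the result was not tested. Within tumours of the same range of library numbers (33 trametinib and 31 untreated tumours of 11 models) 16 synthesis genes fell, against 15.8% of all genes that fell there, and 5 uptake, storage and export genes rose, against 13.2%. With 1 difference per model in place of single tumours, 6 synthesis genes passed by limma, against 4.42% of all genes.

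**Figure D3:**
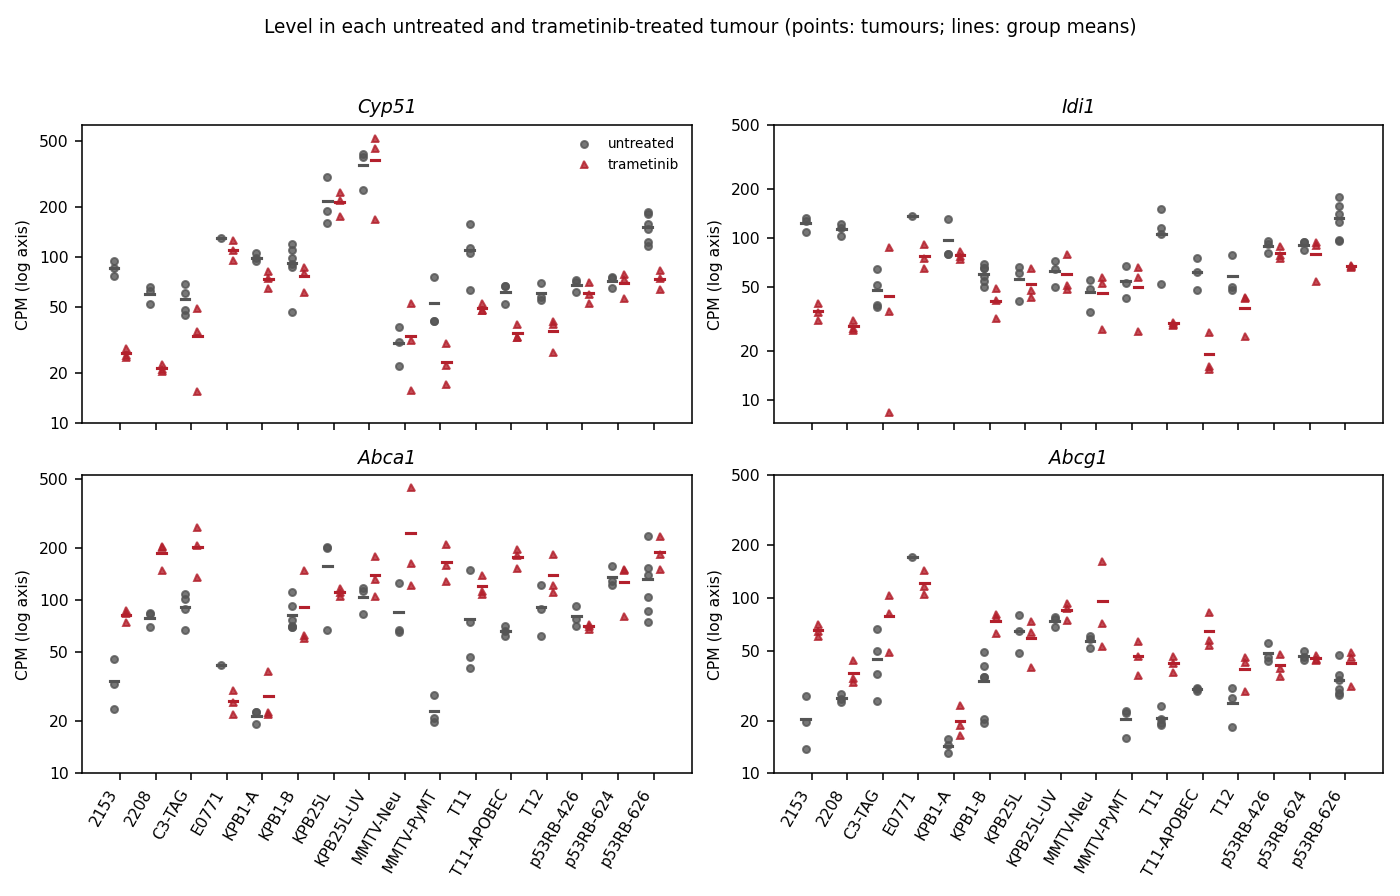
CPM (log axis) of Cyp51, Idi1, Abca1 and Abcg1 in each untreated (circles) and trametinib-treated (triangles) tumour of 16 models (x axis), with lines at group means. In 2153 all 3 treated tumours lie below the untreated ones for Cyp51 (25.0 to 28.4 against 76.8 to 94.7 CPM) and above them for Abca1, while in KPB25L the Cyp51 values of the arms overlap.

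The models with most synthesis genes called under trametinib were 2153 and T11, with 13 of 19 lower in each. In 2153, where 10.7% of all genes fell and 9.66% rose, Cyp51 stood at 85.6, 94.7 and 76.8 CPM in the untreated tumours and at 28.4, 25.0 and 25.7 CPM under trametinib, log2 fold change -1.70 (SE 0.30, adjusted p = 5.04e-06). Sqle stood at 149, 163 and 137 CPM and at 50.1, 42.4 and 41.1 CPM, log2 fold change -1.75 (SE 0.32). Srebf2 stood at 419, 490 and 377 CPM and at 179, 137 and 150 CPM, log2 fold change -1.46 (SE 0.22). None of the treated tumours reached the lowest untreated one in any of these 3 genes. Abca1 went the other way, from 32.8, 23.5 and 45.7 CPM to 74.6, 87.8 and 83.9 CPM, log2 fold change 1.27 (SE 0.38, adjusted p = 0.0081), and so did Abcg1 and Nr1h3. No 2153 tumours of the 2 arms share a range of library numbers, and the labels do not mark the untreated 2153 tumours as belonging to the trametinib set. With only the untreated tumours so marked (42 trametinib and 40 untreated tumours of 14 models, without 2153 and 2208), 12 synthesis genes fell over the models and 4 uptake, storage and export genes rose, against 21.4% of all genes called in either direction. In 2153 the summed macrophage markers were 1277 CPM under trametinib against 501 CPM untreated. In T11, where 6.90% of all genes fell and 5.95% rose, Idi1 stood at 52.0, 106, 151 and 115 CPM untreated and at 29.2, 30.2 and 29.4 CPM treated, log2 fold change -1.84 (SE 0.33, adjusted p = 1.37e-05). Insig1 stood at 32.1, 55.3, 59.3 and 55.0 CPM and at 19.5, 14.8 and 17.0 CPM, log2 fold change -1.56 (SE 0.23, adjusted p = 1.41e-07). The first untreated T11 tumour, the only one of its library-number range and not marked for the trametinib set, was the lowest of the 4 in both genes and still above the treated tumours. Abca1 in T11 did not pass (148, 74.1, 40.4 and 47.0 CPM against 139, 113 and 108 CPM, adjusted p = 0.244), with that same tumour highest. In KPB25L, by contrast, Cyp51 averaged 0.03 higher on the log2 scale under trametinib.

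Erlotinib was compared with no treatment in 48 tumours and the same 54 untreated tumours. The 4 comparisons with untreated tumours share controls, so their values are set side by side and no likeness between them is drawn. Under erlotinib 14 of 19 synthesis genes fell, against 2.64% of all genes that fell, and 4 of 9 uptake, storage and export genes rose, against 1.61% of all genes that rose; 4.25% of all genes were called in either direction. Median log2 fold changes were -0.28 over synthesis genes, 0.20 over uptake, storage and export genes, and -0.01 over all genes. Cyp51 ran from 13.4 through 56.4 to 307 CPM under erlotinib, log2 fold change -0.57 (SE 0.074, adjusted p = 3.47e-07). Fdps ran from 11.9 through 72.6 to 216 CPM, log2 fold change -0.53 (SE 0.073, adjusted p = 1.51e-06). Both were lower on average in 16 of 16 models, while their arms overlapped the untreated ones. Sqle ran from 2.75 through 78.9 to 217 CPM, log2 fold change -0.40 (SE 0.090, adjusted p = 0.00489). The synthesis genes that did not pass were Mvk (-0.10), Pmvk (-0.22), Tm7sf2 (-0.16), Ebp (-0.07) and Sc5d (-0.16).

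Of the regulators under erlotinib, Srebf2 ran from 41.5 through 236 to 481 CPM and fell by 0.32 (SE 0.061, adjusted p = 0.000898). Insig1 ran from 13.6 through 26.2 to 102 CPM and fell by 0.31 (SE 0.062, adjusted p = 0.00151). Stard4 ran from 6.67 through 28.4 to 77.0 CPM and fell by 0.42 (SE 0.071, adjusted p = 0.000164). These 3 were lower on average in 14, 13 and 11 of 16 models. Abcg1 ran from 11.4 through 50.9 to 749 CPM and rose by 0.59 (SE 0.12, adjusted p = 0.00194). Abca1 ran from 16.8 through 115 to 1390 CPM and rose by 0.51 (SE 0.14, adjusted p = 0.0217). Mylip ran from 5.94 through 37.8 to 249.7 CPM and rose by 0.36 (SE 0.081, adjusted p = 0.00509). Each of these LXR targets was higher on average in 12 of 16 models, and the highest tumour was of MMTV-Neu. Npc2 rose by 0.24 (adjusted p = 0.0447), while Npc1 (15.1 through 61.7 to 156 CPM, 0.09, adjusted p = 0.344) and Soat1 (30.7 through 92.3 to 405 CPM, 0.12, adjusted p = 0.626) did not pass. Outside the 31 genes, the sterol sensing gene Tmem97, a sterol-regulated membrane protein, fell by 0.32 and Rxra, the partner of the LXRs, rose by 0.23. Dividing-cell markers moved with the comparison, 5 of 6 lower (summed median 768 against 1056 CPM). Of 6 epithelial markers 1 was lower, where 2.64% of all genes fell. No marker of the 8 other cell types was called. The part of these markers in the result was not tested. Without MMTV-Neu, 13 synthesis genes fell and 2 uptake, storage and export genes rose, against 2.39% of all genes called in either direction: Abcg1 and Mylip kept their calls, and Abca1 (0.36, adjusted p = 0.0703) and Npc2 lost theirs. Leaving out 1 tumour of every group in turn gave 6 to 15 called synthesis genes and 2 to 5 called uptake, storage and export genes. Positions 1, 2 and 3, by library number, gave 8, 6 and 7 synthesis genes and 2 uptake, storage and export genes each. The shares of all genes called in those fits are not given. Later positions exist only in some untreated groups. Within a shared library-number range (33 and 31 tumours of 11 models) 7 synthesis genes fell, against 1.98% of all genes, and 1 uptake, storage and export gene rose, against 1.41%; with 1 difference per model none of the 25856 genes tested passed by limma, with 14 synthesis genes lower at an unadjusted p under 0.05.

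In MMTV-Neu under erlotinib the 3 tumours differed widely from the untreated ones and from each other, and the arms share no library-number range. There 14 synthesis genes fell, against 18.1% of all genes, and 7 of the 9 uptake, storage and export genes rose, against 19.1%. Soat1 stood at 16.9, 21.2 and 13.0 CPM untreated and at 405, 341 and 56.4 CPM under erlotinib, log2 fold change 3.97 (SE 0.26, adjusted p = 3.09e-32). Abca1 stood at 66.7, 125 and 65.0 CPM and at 1390, 935 and 310 CPM, log2 fold change 3.36 (SE 0.41, adjusted p = 7.46e-13). Sqle stood at 56.2, 45.9 and 46.5 CPM and at 2.75, 8.97 and 33.7 CPM, log2 fold change -1.71 (SE 0.32). In all 3 genes the third treated tumour was the nearest to the untreated ones, and no treated tumour overlapped them. Macrophage markers summed to 6461, 4942.8 and 1133 CPM in the treated tumours in the same order, against 280.4 to 523 CPM untreated, and epithelial markers to 304, 1727 and 3773 CPM, against 4271 to 5346 CPM. Skeletal muscle markers reached 13613 CPM in the first tumour, and dividing-cell markers were 23.3 to 50.8 CPM against 482 to 710 CPM. Their part in the result was not tested. In KPB1-B under erlotinib, 9 synthesis genes fell (10.7% of all genes fell and 10.5% rose). Cyp51 stood at 47.0 to 119 CPM (median of the 6 untreated tumours between 91.3 and 98.7) and at 42.3, 64.7 and 46.1 CPM treated, log2 fold change -0.86 (SE 0.26, adjusted p = 0.0108), with overlap in 1 untreated tumour. Abcg1 stood at 19.3 to 49.1 CPM and at 102, 72.1 and 140.1 CPM, log2 fold change 1.65 (SE 0.27, adjusted p = 5.11e-07), with no overlap.

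Chemotherapy was compared with no treatment in 48 tumours and the same 54 untreated tumours. Again 15 of 19 synthesis genes fell, against 5.89% of all genes that fell, and 3 of 9 uptake, storage and export genes rose, against 11.6% of all genes that rose. Median log2 fold changes were -0.30 over synthesis genes, 0.21 over uptake, storage and export genes, and 0.04 over all genes. Hmgcs1, the enzyme that makes HMG-CoA, had run from 38.6 through 108 to 240 CPM untreated and ran from 27.1 through 66.7 to 204 CPM after chemotherapy. Its log2 fold change was -0.61 (SE 0.069, adjusted p = 4.38e-10), lower on average in 16 of 16 models with overlapping arms. Idi1 ran from 14.1 through 51.6 to 133 CPM, log2 fold change -0.73 (SE 0.095, adjusted p = 5.81e-08). Cyp51 ran from 17.4 through 53.2 to 253 CPM, log2 fold change -0.69 (SE 0.091, adjusted p = 9.1e-08). Sqle ran from 18.3 through 69.2 to 176 CPM, log2 fold change -0.47 (SE 0.082, adjusted p = 2.65e-05). Idi1 and Sqle were lower on average in 15 of 16 models and Cyp51 in 14. Fdps, at 22.0 through 80.8 to 216 CPM, fell by 0.33 (SE 0.093, adjusted p = 0.00756) and was lower in 11 of 16 models. The synthesis genes that did not pass were Mvk (-0.17), Pmvk (-0.20), Ebp (0.02) and Dhcr7 (-0.10).

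Insig1 ran from 9.43 through 23.8 to 69.1 CPM after chemotherapy and fell by 0.48 (SE 0.080, adjusted p = 1.04e-05). Srebf2 ran from 92.3 through 215 to 508 CPM and fell by 0.34 (SE 0.070, adjusted p = 0.000243). Stard4 ran from 11.8 through 27.1 to 55.7 CPM and fell by 0.43 (SE 0.078, adjusted p = 3.95e-05). Insig1 and Stard4 were lower on average in 14 of 16 models and Srebf2 in 13. Abcg1 ran from 22.2 through 59.4 to 214 CPM and rose by 0.77 (SE 0.12, adjusted p = 2.59e-06), higher in 14 of 16 models. Npc2 rose by 0.52 (adjusted p = 9.91e-05) and Nr1h3 by 0.52 (adjusted p = 0.00595). Abca1 (16.0 through 99.6 to 244 CPM, 0.32, adjusted p = 0.11), Mylip (5.54 through 34.9 to 128 CPM, 0.21, adjusted p = 0.0862), Soat1 (21.4 through 85.7 to 216 CPM, 0.16, adjusted p = 0.0778) and Npc1 (23.7 through 62.0 to 102 CPM, 0.04, adjusted p = 0.597) did not pass. Counts from the other gene lists and markers are to be read against the 5.89% of all genes that fell and the 11.6% that rose. Fatty acid synthesis genes fell as well, 6 of 12, with Elovl6 (a fatty acid elongase) lower by 0.47. Among 16 other transport genes 1 fell and 5 rose, with Lrp1, a lipoprotein remnant receptor, higher by 0.50, and 3 of 11 oxysterol and LXR pathway genes rose. Of 8 macrophage markers 6 rose after chemotherapy (summed median 1612 against 1546 CPM), as did 3 of 4 neutrophil, 2 of 4 endothelial, 2 of 5 T cell and 2 of 6 fibroblast markers, while 1 of 6 dividing-cell markers fell, and their part in the result was not tested. Within a shared library-number range (20 and 19 tumours of 7 models) 14 synthesis genes fell, against 3.64% of all genes, and 2 uptake, storage and export genes rose, against 2.38%: Abcg1 by 0.92 and Abca1, which then passed, by 0.66 (adjusted p = 0.0162). Without KPB25L-UV, 15 synthesis genes fell, against 5.33% of all genes, and 5 uptake, storage and export genes rose, against 9.98%. Leaving out the third tumour of every group, by library number, gave 9 called synthesis genes, the lowest count of such fits. The share of all genes called in that fit is not given. With 1 difference per model none of the 26710 genes tested passed by limma, with 13 synthesis genes lower at an unadjusted p under 0.05.

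MMTV-PyMT and C3-TAG had the most called synthesis genes after chemotherapy. In MMTV-PyMT, where 12.0% of all genes fell and 10.9% rose, 11 synthesis genes fell and 3 uptake, storage and export genes rose. Fdps stood at 168, 106 and 127 CPM untreated and at 36.8, 35.0 and 36.5 CPM treated, log2 fold change -1.89 (SE 0.28, adjusted p = 4.58e-08). Cyp51 stood at 76.0, 41.0 and 41.0 CPM and at 17.4, 18.0 and 17.5 CPM, log2 fold change -1.58 (SE 0.30, adjusted p = 1.55e-05). Abca1 stood at 19.8, 20.8 and 28.2 CPM and at 183, 218 and 189 CPM, log2 fold change 3.10 (SE 0.40, adjusted p = 6.63e-10). The 3 treated tumours lay close together and apart from the untreated ones in each of these genes. Summed macrophage markers were 764 CPM treated against 349 CPM untreated, and the arms share no library-number range. In C3-TAG, where 16.0% of all genes fell and 13.4% rose, 10 synthesis genes fell and Mvd rose, and 3 uptake, storage and export genes rose (Npc2, Soat1 and Nr1h2) and Stard4 fell. Lbr stood at 102, 154, 78.6 and 159.5 CPM and at 48.4, 50.0 and 49.5 CPM, log2 fold change -1.32 (SE 0.18, adjusted p = 5.96e-10). Npc2 stood at 203, 102, 270.4 and 138 CPM and at 633, 594 and 570.2 CPM, log2 fold change 1.75 (SE 0.24, adjusted p = 1.74e-09), while Abca1 was not called (66.9, 101, 107 and 88.4 against 51.4, 87.2 and 49.2 CPM, adjusted p = 0.257). Macrophage markers in C3-TAG were 2761 against 840 CPM, and its arms share no library-number range either. A model chosen after its values were seen, p53RB-626, had 9 synthesis genes lower where 0.826% of all genes fell: Cyp51 stood at 117 to 187 CPM in 6 untreated tumours and at 65.4, 52.6 and 52.2 CPM after chemotherapy, and Abca1 at 74.9 to 234 CPM and at 179.8, 176 and 178 CPM. Only some of its untreated tumours share a library-number range with the treated ones, and the labels do not mark those for the chemotherapy set. Macrophage markers of p53RB-626 were lower after chemotherapy (2457 against 3741 CPM).

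Checkpoint antibodies were compared with no treatment in 36 and 41 tumours of 12 models. No synthesis gene and no regulator passed by edgeR, against 3.15% of all genes that fell and 4.98% that rose, and 2 of 9 uptake, storage and export genes rose. At an unadjusted p under 0.05, 3 synthesis genes were lower, and DESeq2 called 3 lower, where it called 12.2% of all genes in either direction; without MMTV-Neu, edgeR called 3 lower, where 8.57% of all genes were called. Hmgcs1 ran from 38.6 through 99.8 to 203 CPM untreated and from 41.1 through 82.4 to 192 CPM treated, log2 fold change -0.18 (SE 0.066, adjusted p = 0.082). Cyp51 ran from 22.1 through 74.8 to 187 CPM and from 26.4 through 61.6 to 149 CPM, log2 fold change -0.21 (SE 0.080, adjusted p = 0.0837). In both genes the arms overlapped almost fully. Fdps ran from 47.7 through 109 to 236 CPM untreated and from 50.8 through 98.9 to 242 CPM treated, log2 fold change 0.02 (adjusted p = 0.926). For Sqle the untreated tumours ran from 33.4 through 103 to 177 CPM and the treated ones from 22.1 through 96.9 to 189 CPM, log2 fold change -0.07 (adjusted p = 0.648). Neither enzyme of the middle of the pathway passed. For Insig1 the untreated tumours ran from 13.2 through 35.4 to 94.4 CPM and the treated ones from 15.6 through 33.3 to 77.8 CPM, log2 fold change -0.10 (adjusted p = 0.465). Under antibodies Srebf2 ran from 164 through 257 to 439 CPM, against 144 through 277 to 490.3 CPM untreated, log2 fold change -0.08 (adjusted p = 0.41). These regulators did not pass, and their arms overlapped. Under antibodies Npc1 ran from 17.8 through 70.5 to 90.9 CPM, against 21.3 through 74.6 to 99.8 CPM untreated, log2 fold change -0.03 (adjusted p = 0.725). For Soat1 the untreated tumours ran from 13.0 through 50.6 to 187 CPM and the treated ones from 15.9 through 49.8 to 194 CPM, log2 fold change 0.03 (adjusted p = 0.844). The lysosomal exporter and the storage enzyme lay at nearly the same levels in both arms. Abca1 ran from 19.4 through 76.8 to 234 CPM untreated and from 10.7 through 84.5 to 209 CPM treated, log2 fold change 0.08 (adjusted p = 0.754). For Mylip the untreated tumours ran from 11.8 through 29.1 to 97.4 CPM and the treated ones from 11.1 through 31.4 to 77.5 CPM, log2 fold change 0.10 (adjusted p = 0.511). These LXR targets did not pass. Npc2 ran from 90.2 through 234 to 815 CPM and from 139.8 through 282 to 1105 CPM, log2 fold change 0.30 (SE 0.069, adjusted p = 0.00286). Abcg1 ran from 13.0 through 30.5 to 171 CPM and from 10.4 through 43.6 to 282 CPM, log2 fold change 0.33 (SE 0.085, adjusted p = 0.00968). Both were higher on average in 10 of 12 models. All 7 muscle markers (summed median 20.4 against 146 CPM) and 3 of 6 adipocyte markers were lower under antibodies, and 1 of 5 T cell and 1 of 4 neutrophil markers were higher; their part in the result was not tested. Within a shared library-number range (9 and 9 tumours of 3 models) edgeR called none of the 31 genes, with 1 synthesis gene lower and 2 uptake, storage and export genes higher at an unadjusted p under 0.05, where 0.0147% of all genes were called; Npc2 then had a log2 fold change of -0.09 and Abcg1 one of 0.11. In single models, 3 synthesis genes fell in p53RB-626 (1.36% of all genes fell and 1.08% rose), where Srebf2 stood at 285 to 375 CPM untreated and at 189, 236 and 173 CPM treated (log2 fold change -0.78, SE 0.20, adjusted p = 0.00991). In p53RB-426 (1.83% of all genes fell and 2.97% rose) Hmgcs1 and Pmvk fell and Npc2 rose. In T12 (5.61% of all genes fell and 7.28% rose) Lbr stood at 40.7, 29.0 and 29.4 CPM and at 56.7, 55.2 and 59.2 CPM (log2 fold change 0.79, SE 0.18, adjusted p = 0.000905), and Hsd17b7 also rose. In p53RB-626, p53RB-426 and T12 the antibody and untreated arms share no library-number range.

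Trametinib and erlotinib were compared directly in 65 and 66 tumours of 22 models, including models without untreated tumours. There 2 synthesis genes were lower under trametinib, against 8.11% of all genes, and Tm7sf2 and Nr1h2 were higher, against 10.0% of all genes. The medians over synthesis genes and over all genes were both 0.02. Lbr ran from 19.0 through 45.5 to 140.2 CPM under trametinib and from 17.7 through 49.2 to 122 CPM under erlotinib, log2 fold change -0.23 (SE 0.048, adjusted p = 0.000185). Dhcr7 ran from 12.7 through 34.5 to 136 CPM and from 17.6 through 37.5 to 162 CPM, log2 fold change -0.15 (SE 0.052, adjusted p = 0.0297). Both were lower on average under trametinib in most models, 17 and 16 of 22. Nr1h2 ran from 35.0 through 101 to 158 CPM and from 29.8 through 89.3 to 144 CPM, log2 fold change 0.12 (SE 0.036, adjusted p = 0.0147). The other genes followed throughout were not called. Cyp51 ran from 15.6 through 49.4 to 524 CPM under trametinib and from 13.4 through 53.9 to 307 CPM under erlotinib, log2 fold change 0.01 (SE 0.079). For Fdps the trametinib tumours ran from 28.5 through 63.2 to 171 CPM and the erlotinib tumours from 11.9 through 72.6 to 216 CPM, log2 fold change -0.04 (SE 0.071). Under trametinib Sqle ran from 15.5 through 68.7 to 189.6 CPM, against 2.75 through 84.1 to 228 CPM under erlotinib, log2 fold change -0.15 (SE 0.094). The arms of these synthesis genes overlapped over most of their range. For Insig1 the trametinib tumours ran from 12.7 through 25.3 to 93.0 CPM and the erlotinib tumours from 13.6 through 27.1 to 102 CPM, log2 fold change -0.04 (SE 0.07). Under trametinib Srebf2 ran from 66.5 through 215 to 405 CPM, against 41.5 through 239 to 481 CPM under erlotinib, log2 fold change -0.11 (SE 0.054). Stard4 ran from 8.10 through 24.2 to 62.4 CPM under trametinib and from 6.67 through 26.3 to 77.0 CPM under erlotinib, log2 fold change -0.17 (SE 0.067). All 3 medians were lower under trametinib, without a call. Under trametinib Npc1 ran from 17.7 through 63.1 to 96.6 CPM, against 15.1 through 56.8 to 156 CPM under erlotinib, log2 fold change 0.04 (SE 0.061). Soat1 ran from 12.7 through 48.7 to 178 CPM under trametinib and from 17.3 through 64.6 to 405 CPM under erlotinib, log2 fold change -0.08 (SE 0.085). Neither gene separated the arms. For Abca1 the trametinib tumours ran from 9.39 through 112 to 446 CPM and the erlotinib tumours from 8.04 through 98.0 to 1390 CPM, log2 fold change 0.13 (SE 0.1). Under trametinib Abcg1 ran from 4.33 through 46.5 to 162 CPM, against 3.51 through 47.5 to 749 CPM under erlotinib, log2 fold change -0.04 (SE 0.1). Mylip ran from 4.18 through 45.0 to 157 CPM under trametinib and from 5.94 through 36.0 to 249.7 CPM under erlotinib, log2 fold change 0.10 (SE 0.059). The highest values of these efflux and LXR genes were those of erlotinib tumours. Without MMTV-Neu, 5 synthesis genes were lower under trametinib and of the uptake, storage and export genes 1 was lower and 1 higher, shares near the 23.2% of all genes called in that fit. Among markers, 5 of 8 macrophage (944 against 1353 CPM) and all 4 endothelial ones were lower under trametinib and 5 of 6 fibroblast ones higher, and their part was not tested. With 1 difference per model no synthesis gene and no uptake, storage and export gene passed by limma, where 1.09% of all genes passed. At an unadjusted p under 0.05, 2 synthesis genes were lower and 1 higher in that fit.

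Checkpoint antibodies and chemotherapy were compared directly in 48 and 48 tumours of 16 models. Here 17 of 19 synthesis genes and 2 of 3 regulators were higher under antibodies, against 7.65% of all genes, and 3 of 9 uptake, storage and export genes were lower, against 7.67% of all genes. Leaving out 1 tumour of every group in turn gave 8 to 17 called synthesis genes and 1 to 4 called uptake, storage and export genes. The upper ends equal the main counts, which the fits at positions beyond 3 returned because no group held more tumours. Positions 2 and 3, by library number, gave 11 and 8 synthesis genes, and the shares of all genes called in those fits are not given. Median log2 fold changes, antibodies over chemotherapy, were 0.29 over synthesis genes, -0.12 over uptake, storage and export genes and -0.01 over all genes. Msmo1 ran from 12.8 through 46.5 to 153 CPM under antibodies and from 7.99 through 34.3 to 147 CPM after chemotherapy, log2 fold change 0.44 (SE 0.071, adjusted p = 1.2e-05). Fdft1 ran from 29.6 through 66.0 to 117 CPM and from 21.2 through 52.2 to 100 CPM, log2 fold change 0.36 (SE 0.058, adjusted p = 1.45e-05). Both were higher on average under antibodies, Msmo1 in 15 and Fdft1 in 13 of 16 models. For Fdps the antibody tumours ran from 50.8 through 113 to 242 CPM and the chemotherapy tumours from 22.0 through 74.5 to 216 CPM, log2 fold change 0.51 (SE 0.084, adjusted p = 1.52e-05). Cyp51 ran from 26.4 through 62.7 to 149 CPM under antibodies and from 17.4 through 48.0 to 119 CPM after chemotherapy, log2 fold change 0.47 (SE 0.083, adjusted p = 5.28e-05). For Sqle the antibody tumours ran from 22.1 through 103 to 302 CPM and the chemotherapy tumours from 18.3 through 76.8 to 274 CPM, log2 fold change 0.41 (SE 0.079, adjusted p = 0.000209). These were higher in 15, 14 and 15 of 16 models. Insig1 ran from 15.6 through 37.0 to 77.8 CPM under antibodies and from 9.43 through 28.1 to 69.1 CPM after chemotherapy, log2 fold change 0.43 (SE 0.065, adjusted p = 6.2e-06). For Srebf2 the antibody tumours ran from 90.4 through 269 to 439 CPM and the chemotherapy tumours from 74.7 through 226.2 to 508 CPM, log2 fold change 0.26 (SE 0.066, adjusted p = 0.00344). Stard4 ran from 18.1 through 35.1 to 65.9 CPM under antibodies and from 11.8 through 28.9 to 55.7 CPM after chemotherapy, log2 fold change 0.36 (SE 0.074, adjusted p = 0.000412). Like the synthesis genes, these regulators and the sterol carrier were higher under antibodies, while Scap did not pass (0.06, adjusted p = 0.339).

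The efflux genes were lower under antibodies than after chemotherapy. For Abca1 the antibody tumours ran from 9.72 through 71.8 to 209 CPM and the chemotherapy tumours from 12.9 through 88.8 to 244 CPM, log2 fold change -0.47 (SE 0.14, adjusted p = 0.0147). Abcg1 ran from 5.60 through 39.5 to 282 CPM under antibodies and from 5.48 through 57.0 to 214 CPM after chemotherapy, log2 fold change -0.47 (SE 0.12, adjusted p = 0.00319). For Npc1 the antibody tumours ran from 17.8 through 60.7 to 90.9 CPM and the chemotherapy tumours from 23.7 through 67.5 to 102 CPM, log2 fold change -0.19 (SE 0.049, adjusted p = 0.00388). They were lower on average in 12, 14 and 12 of 16 models. Soat1 ran from 15.9 through 49.1 to 194 CPM under antibodies and from 21.4 through 62.8 to 178 CPM after chemotherapy, log2 fold change -0.11 (SE 0.069, adjusted p = 0.3). For Mylip the antibody tumours ran from 11.1 through 32.5 to 77.5 CPM and the chemotherapy tumours from 5.54 through 34.8 to 128 CPM, log2 fold change -0.12 (SE 0.098, adjusted p = 0.439). Neither passed, and the arms of all genes named in this comparison overlapped. Cell type markers moved with this comparison, where 7.67% of all genes were lower. Of 8 macrophage markers 4 were lower under antibodies (summed median 749 against 1455 CPM), and so were all 7 muscle, 5 of 6 adipocyte and 3 of 6 fibroblast markers. Their part in the result was not tested. Within a shared library-number range (15 and 15 tumours of 5 models) edgeR called no member, with 9 synthesis genes higher and 3 uptake, storage and export genes lower at an unadjusted p under 0.05, where 0.106% of all genes were lower and 0.00921% higher; Cyp51 was then at 0.16 and Abcg1 at -0.38. With 1 difference per model none of the 24782 genes tested passed by limma, with 15 synthesis genes higher at an unadjusted p under 0.05.

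The response was then tested for differences between models. The interaction of treatment and model passed for 18 of 19 synthesis genes, 2 of 3 regulators and 9 of 9 uptake, storage and export genes under trametinib, against 57.7% of all genes tested. Under erlotinib it passed for 12, 2 and 8, against 52.6%, after chemotherapy for 15, 1 and 7, against 46.3%, and under antibodies for 11, 2 and 5, against 34.0%. The erlotinib share of synthesis genes lay near its background. Leaving out 1 tumour of every group in turn gave 14 to 16 synthesis genes under trametinib, 3 to 12 under erlotinib, 6 to 10 after chemotherapy and 2 to 6 under antibodies, and 5 to 8, 6 to 8, 5 to 8 and 0 to 3 uptake, storage and export genes. The shares of all genes passing in these smaller fits are not given, so their counts cannot be read against the percentages above. Under erlotinib the interaction did not pass for Cyp51 (adjusted p = 0.352) or Fdps (adjusted p = 0.137), whose differences ranged over models from -0.89 to -0.08 and from -1.55 to -0.02 on the log2 scale. To place the models, each tumour was given a synthesis score and an uptake and export score, the mean over the 19 or 9 genes of the log2 CPM less the gene's mean over all 100 groups; the scores carry no test. The synthesis score was lower than in untreated tumours in 14 of 16 models under trametinib (median difference -0.36, from -0.84 to 0.05), in 15 of 16 under erlotinib (median -0.24), in 15 of 16 after chemotherapy (median -0.34) and in 7 of 12 under antibodies (median -0.07). The synthesis score less the export score had median differences of -0.46, -0.34, -0.46 and -0.14 in the same order. Over the models whose arms share a library-number range (11, 11, 7 and 3 models), the medians of the synthesis score were -0.13, -0.13, -0.39 and 0.0014, and those of synthesis less export were -0.21, -0.31, -0.47 and -0.03. Under trametinib 2208, 2153, T11 and T11-APOBEC were lowest in synthesis (-0.84, -0.81, -0.76 and -0.65), of which 2208 and 2153 have arms with no shared library-number range, and KPB25L, KPB25L-UV, p53RB-426 and p53RB-624 lay between -0.02 and 0.05. The order differed by treatment: 2153 stood at -0.14 under erlotinib and -0.06 after chemotherapy, and MMTV-Neu at -0.09 under trametinib and -0.99 under erlotinib. KPB25L lay between -0.02 and 0.10 in the 3 comparisons it entered. In the direct comparison of antibodies with chemotherapy the synthesis score was higher under antibodies in 16 of 16 models (median 0.26, and 0.11 over the 5 models with a shared library-number range), and that of trametinib was higher or lower than erlotinib in 11 of 22 models each.

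**Figure D4:**
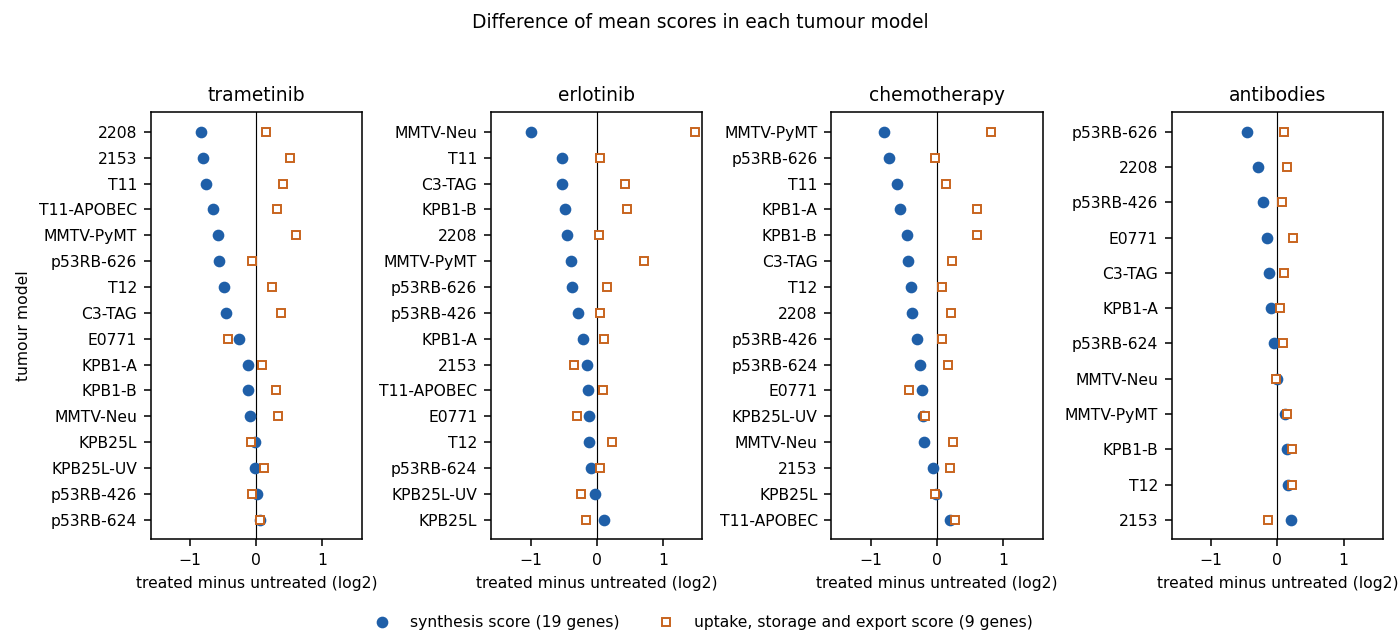
Treated minus untreated difference (x axis, log2) of the mean synthesis score (filled circles) and of the mean uptake, storage and export score (open squares) in each model (y axis, ordered by the synthesis difference), 1 panel for each treatment. Synthesis circles lie left of 0 in 14 of 16, 15 of 16, 15 of 16 and 7 of 12 models, and MMTV-Neu under erlotinib has the widest gap (-0.99 and 1.48).

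Tumours of the same model and treatment also varied together in these genes. Deviations from the group mean were taken in all 309 tumours of 100 groups, and each gene was set against the mean of the other synthesis genes. These correlations share libraries and depth and are given as descriptions. Pearson's r was highest for Fdps (0.84), Cyp51 (0.80), Idi1 (0.79) and Acat2 (0.77), and lowest among synthesis genes for Tm7sf2 (0.34) and Ebp (0.28), both of which catalyse late steps. Insig1 (0.73), Stard4 (0.70) and Srebf2 (0.60), which are no synthesis enzymes, ranked 3, 4 and 16 from the top of the 28909 other genes measured. At the other end, Abca1 (-0.54) ranked 3 from the bottom, Mylip (-0.49) 20, Abcg1 (-0.48) 29 and Soat1 (-0.45) 79. The LXR gene Nr1h2 was near 0 (-0.0021), and Nr1h3 was at -0.30. Cell type markers varied with some of these genes within groups. Summed macrophage markers had r of 0.73 with Npc2, 0.69 with Abcg1, 0.29 with Abca1, -0.62 with Lss, -0.56 with Sqle and -0.09 with Fdps. Dividing-cell markers had r of 0.72 with Lbr and 0.65 with Stard4, against 0.24 with Fdps.

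**Figure D5:**
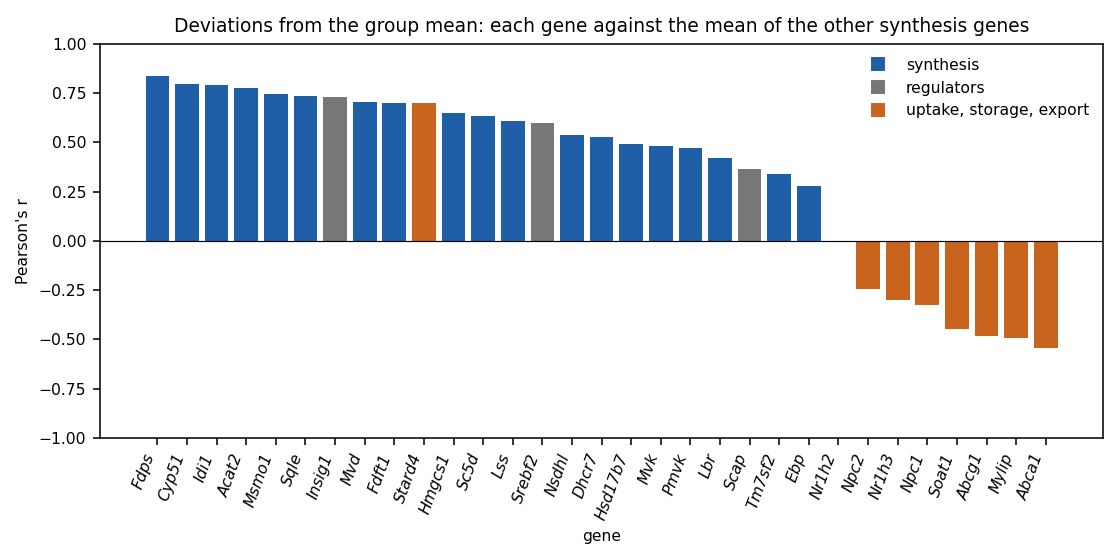
Pearson's r (y axis) between the deviations of each gene (x axis) from its group mean and those of the mean of the other synthesis genes, over 309 tumours of 100 groups, coloured by role. Synthesis genes run from 0.84 (Fdps) to 0.28 (Ebp), Insig1 and Stard4 stand among them at 0.73 and 0.70, and Abca1 is lowest at -0.54.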

How the data were processed

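Gene expression was measured by polyA mRNA-seq (Illumina TruSeq mRNA kit, RNA from cryopreserved tumours by RNeasy), per the labels' protocols. Salmon, STAR, SAMtools, Picard and the mm10 build are named in the submitters' processing notes, with no versions; whether counting used strand is not given in the sources used here. Per the file headers and values, the authors deposited estimated counts per gene symbol from Salmon and a second table of normalized signal, in which the deposited values equal the counts divided by each library's 75th percentile and multiplied by 1000. Estimated counts (8.35% not whole) were rounded, filtered with filterByExpr and scaled by TMM in edgeR 4.0.16 (R 4.3.3).

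Groups came from the labels. Treated and untreated tumours of the same models were compared with edgeR's quasi-likelihood test with model as a term; the dispersion trend was estimated on every 5th gene by abundance. Interactions, single models and untreated models used the same test. Benjamini-Hochberg adjustment ran over all genes tested, at 0.05. CPM are TMM-scaled; scores use log2 CPM with a prior count of 2. Tumours of 1 model are treated as independent, and the labels do not say how they relate, so p-values measure the spread between tumours. None of 355 pairs of tumours of 1 group agreed within sampling noise. A range of library numbers ends where consecutive numbers differ by 100 or more (10 ranges); the labels do not say what the numbers mean.

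Named genes were Cyp51, Fdps, Sqle, Insig1, Srebf2, Npc1, Soat1, Abca1, Abcg1 and Mylip throughout, the 2 synthesis and 2 uptake, storage and export genes of smallest p in each comparison, and in 5 pathway lists the gene of smallest p. The members, pathway lists and 10 cell type marker lists were chosen with earlier results of these data known. Alternatives were DESeq2 1.42.0, limma 3.58.1 on the authors' normalized signal (log2 of the value plus 1), limma on 1 difference per model, no filter, only the untreated tumours the labels mark for a treatment set, library-number range as a term or held constant, and leaving out MMTV-Neu, tumours high in muscle markers, or single tumours. The fit without KPB25L-UV was chosen after seeing the data. Only the test of trametinib against untreated was checked on simulated counts, with the same fold change in every model and 1 dispersion for all genes. The other tests were not checked in this way.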

Additional observations from a re-analysis of the deposited data

Results flagged for a closer look

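A single untreated K14-TRT tumour had a synthesis score of 0.38, while the next highest of the 9 tumours stood at 0.0076; its gap took 0.567 of the group's range. A single untreated C3-TAG tumour had an uptake, storage and export score of 0.29, while the next highest of the 4 tumours stood at -0.27, a gap of 0.896 of the range. Only groups of at least 4 tumours were screened: the untreated groups of C3-TAG, K14-TRT, KPB1-B, p53RB-626 and T11. For each score, about 1 in 20 such groups is picked out this way by chance.

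The response to treatment differed between models, by the interaction of treatment and model in edgeR, for 18 synthesis genes, 2 regulators and 9 uptake, storage and export genes under trametinib. There 57.7% of all genes tested passed as well. Under erlotinib the counts were 12, 2 and 8, against 52.6% of all genes, and after chemotherapy 15, 1 and 7, against 46.3%. Under checkpoint antibodies they were 11, 2 and 5, against 34.0%.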

How the results depend on the processing

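Of 676 log2 fold changes of called members recomputed under the alternatives, 565 kept their direction and call, 109 kept the direction but lost the call, and 2 reversed: Npc2 under antibodies went from 0.30 to -0.091 both with library-number range as a term and within shared ranges. Some of the fits repeat the main one and could not change a call. In trametinib against erlotinib and in antibodies against chemotherapy no group held more than 3 tumours. Leaving out tumours at positions beyond 3, in library-number order, therefore dropped none there. In trametinib against erlotinib the 2 library-number range fits also returned the main result, with 4209 of 23207 genes called. The 565 thus overstates how many fold changes were put to a test. With 1 difference per model, called synthesis genes went from 15 to 6 under trametinib and to 0 under erlotinib, chemotherapy, trametinib against erlotinib, and antibodies against chemotherapy, while called uptake, storage and export genes went from 6 to 2 under trametinib and to 0 in the other 5 comparisons. With range as a term or within shared ranges, antibodies against chemotherapy went from 17 and 4 to 0 and 0, and antibodies from 2 to 0 uptake, storage and export genes. Erlotinib went from 14 and 5 to 4 and 0 with the term and to 7 and 1 within ranges, and chemotherapy from 4 to 1 uptake, storage and export genes with the term. The authors' table gave 7 there. Calls over all genes fell in these fits too. With the term, 0.959% of all genes were called under erlotinib (4.25% in the main fit) and 1.66% after chemotherapy (17.5%). For antibodies against chemotherapy the share was 0.900% (15.3%), and for antibodies 4.12% (8.14%). Within ranges the shares were 3.38% under erlotinib, 0.115% in antibodies against chemotherapy and 0.0147% under antibodies. DESeq2, and leaving out MMTV-Neu, each gave 3 synthesis genes under antibodies. Without MMTV-Neu, erlotinib had 3 uptake, storage and export genes, and trametinib against erlotinib had 5 synthesis and 2 uptake, storage and export genes, the latter also 2 without tumours high in muscle markers. With Abca1, Abcg1 and Mylip as the only export genes, the trametinib median of synthesis less export was -0.98. The cause of these changes was not tested.

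Leaving out the tumour at 1 position of every group in turn, by library number, gave, for synthesis and for uptake, storage and export genes, 13 to 15 and 5 to 6 (trametinib), 6 to 15 and 2 to 5 (erlotinib), 9 to 14 and 3 to 4 (chemotherapy), 0 to 0 and 0 to 2 (antibodies), 1 to 3 and 0 to 1 (trametinib against erlotinib) and 8 to 17 and 1 to 4 (antibodies against chemotherapy). In the last 2 comparisons no group held more than 3 tumours, so fits at later positions dropped none and returned the main counts. The upper ends 3 and 1, and 17 and 4, equal those main counts. With a tumour dropped at position 1, 2 or 3, trametinib against erlotinib kept no called uptake, storage and export gene. Under erlotinib those positions gave 8, 6 and 7 synthesis genes. Interaction counts ran 14 to 16 and 5 to 8, 3 to 12 and 6 to 8, 6 to 10 and 5 to 8, and 2 to 6 and 0 to 3 in the 4 treatments in that order. Calls summed over single models ran 31 to 53 and 13 to 21, 24 to 34 and 15 to 18, 35 to 40 and 15 to 20, and 0 to 2 and 0 to 3, against 72 and 31, 39 and 19, 59 and 27, and 8 and 4 with all tumours. Shares of all genes called in these fits are not given, so their counts have no background of their own. The score medians ran -0.62 to -0.50, -0.41 to -0.25, -0.57 to -0.36, -0.20 to -0.13, -0.10 to -0.06 and 0.26 to 0.54. No paired analysis was possible because the labels give no replicate numbers that tie tumours of different groups. Each member passed the low-count filter in every comparison; trametinib and erlotinib libraries were the shallowest.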

Other observations

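Cyp51 was higher in the untreated tumours of the 3 KPB25L models (217 CPM in KPB25L, 358 in KPB25L-UV and 580 in the single KPB25L-APOBEC tumour) than in any of the 15 other models (highest 152 CPM). Some of its neighbours on chromosome 5 (mm10) were as well. Krit1 stood at 73.2, 83.7 and 84.4 CPM against at most 55.4 CPM, Mterf1a at 8.32, 8.96 and 12.8 against at most 6.07, and Mterf1b at 5.31, 5.60 and 7.99 against at most 3.69. Fzd1 stood at 108, 108 and 123 CPM against at most 106. Cdk14 and the scarcely detected 1700015F17Rik were above the other models in KPB25L-UV and KPB25L-APOBEC, and Ankib1 in KPB25L-UV alone (97.1 CPM against at most 85.7). Akap9, which overlaps the end of Cyp51, Cldn12 and the scarcely detected Lrrd1 were above them in none of the 3. These values are descriptions of few tumours, chosen after the levels of Cyp51 were seen. The share of all genes higher in the 3 KPB25L models than in every other model is not given. A local pattern can therefore not be told from a wider difference of these models.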
